A study of Homo sapiens with 12 samples.

Results

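Expression of 9 autophagy genes was examined in the human acute myeloid leukemia line HL60 after treatment with a differentiating retinoid, a cell cycle inhibitor or both. The genes were the cargo receptor SQSTM1 (p62), the ATG8 family members MAP1LC3B, GABARAP, GABARAPL1 and GABARAPL2, the kinase ULK1, the lipid-handling factors WIPI1 and ATG2A, and the autophagy cofactor TP53INP2. They were taken by symbol from the 59251 genes of the count table, and each of the 9 was found once. Non-treated cells were compared with cells given 1 µM all-trans retinoic acid (ATRA), 1 µM palbociclib, an inhibitor of the kinases CDK4 and CDK6 (CDK4/6i), or both at these doses (CDK4/6i+ATRA), each for 48 h. Each group was sequenced in 3 RNA-Seq libraries, called biological replicates in the labels, 12 in all. The study describes its gene set analysis of the RNA-Seq data as resting on independent experiments, and p-values here measure the spread between these libraries. All 12 come from 1 cell line grown in the same medium, and no vehicle-treated group was analysed here.

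In autophagy, a double membrane closes around cytoplasmic cargo and delivers it to the lysosome. The ULK1 kinase complex starts the process, WIPI proteins bind the phosphoinositide made at the site, and ATG2 proteins carry lipid into the growing membrane. ATG8 proteins (the LC3 and GABARAP subfamilies) are attached to lipid in that membrane and are bound by receptors such as p62, which also bind ubiquitinated cargo and are themselves degraded with it. A transcript level therefore reports on gene expression and not on autophagic flux. In myeloid cells, autophagy genes are known to be induced during ATRA-driven granulocytic differentiation.

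Sequence bears on how well these transcripts can be told apart, so the closest relative of a member was compared first. The coding sequences of MAP1LC3B and of MAP1LC3B2, a close paralog on chromosome 12, each span 375 bases and differ at 2 of them (99.5% identity). Windows of 41 bases around both differences are shown 5′ to 3′ from the annotated transcripts, with the differing base in capitals and positions counted from the A of the start codon. The substitutions are C30G and A338G, with the base of MAP1LC3B given first.
MAP1LC3B, bases 10 to 50: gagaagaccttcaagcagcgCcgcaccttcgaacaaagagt
MAP1LC3B2, bases 10 to 50: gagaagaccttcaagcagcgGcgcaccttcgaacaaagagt
MAP1LC3B, bases 318 to 358: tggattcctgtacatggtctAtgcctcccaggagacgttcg
MAP1LC3B2, bases 318 to 358: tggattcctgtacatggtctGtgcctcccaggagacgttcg
MAP1LC3B2 held only 2 to 12 counts per library, against 399 to 1353 for MAP1LC3B. Of the 50-base windows of the MAP1LC3B transcript, 18.3% also occurred in transcripts of other genes. The GABARAP subfamily was more divergent, with 76.6% identity between GABARAP and GABARAPL1 and 65.9% between GABARAP and GABARAPL2. GABARAPL2, ULK1, ATG2A and TP53INP2 shared no 50-base window with another gene. For GABARAPL1, 4.47% of windows were shared, with GABARAPL3, which held 0 to 4 counts per library. Sharing was most extensive for GABARAP (65.3% of windows, with 3 genes that carry no symbol), SQSTM1 (53.4%, with the antisense gene MRNIP) and WIPI1 (26.4%, with ARSG on the opposite strand). These windows come from GENCODE transcripts, whose gene models differ from the RefSeq models of the count table, and the overlaps given with each member below are those of the count table.

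Promoter sequence was searched because 7 of the 9 members were called higher both with ATRA and with the combined treatment. Of all tested genes, 32.1% were called higher with ATRA and 41% with the combination. RefSeq promoter sequences (GRCh38.p14) were found for 9 of 9 members, and the 250 bases before the start of the gene's representative (MANE Select) transcript are shown for the receptor, for MAP1LC3B and for the 2 members that held a cAMP response element. For SQSTM1 this start lies inside the gene span of the count table, which includes transcripts that begin further upstream. Capitals mark a motif match.
SQSTM1, chr5:179820655-179820904, plus strand: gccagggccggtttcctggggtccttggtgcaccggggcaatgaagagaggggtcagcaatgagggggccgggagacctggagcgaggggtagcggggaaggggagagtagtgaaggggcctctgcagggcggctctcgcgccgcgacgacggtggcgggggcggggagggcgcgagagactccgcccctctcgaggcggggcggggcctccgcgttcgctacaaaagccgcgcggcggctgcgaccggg
MAP1LC3B, chr16:87392086-87392335, plus strand: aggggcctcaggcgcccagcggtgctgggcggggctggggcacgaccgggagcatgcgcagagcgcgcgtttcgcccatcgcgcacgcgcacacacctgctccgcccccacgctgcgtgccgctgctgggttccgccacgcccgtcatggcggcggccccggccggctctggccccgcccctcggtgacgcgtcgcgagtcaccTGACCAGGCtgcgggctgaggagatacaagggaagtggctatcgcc
GABARAPL1, chr12:10212627-10212876, plus strand: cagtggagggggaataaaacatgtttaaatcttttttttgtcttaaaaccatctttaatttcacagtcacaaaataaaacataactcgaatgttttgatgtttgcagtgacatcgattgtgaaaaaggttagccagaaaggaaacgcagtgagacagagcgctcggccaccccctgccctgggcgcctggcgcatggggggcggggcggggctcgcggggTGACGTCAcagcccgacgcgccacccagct
TP53INP2, chr20:34704094-34704343, plus strand: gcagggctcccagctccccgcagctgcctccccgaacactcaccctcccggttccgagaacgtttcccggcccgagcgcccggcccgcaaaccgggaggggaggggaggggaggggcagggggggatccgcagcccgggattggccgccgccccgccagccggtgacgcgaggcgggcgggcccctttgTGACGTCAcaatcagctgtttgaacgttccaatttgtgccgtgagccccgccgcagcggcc
A set of 7 motifs was searched on both strands in windows from 250 bases before to 50 bases after the start. The cAMP response element TGACGTCA, added to the search after the sequences had been read, was present in 1.85% of 35116 promoter windows and in 2 of 9 members, at bases -30 to -23 of GABARAPL1 and -61 to -54 of TP53INP2. The antioxidant response element TGACNNNGC was present in 13.3% of windows and in MAP1LC3B, at bases -46 to -38. No member held the E-box CACGTG (7.26% of windows), the extended E-box TCACGTGA (0.98%), which contains it, the forkhead site GTAAACA (3.42%), the nuclear receptor half-site AGGTCA (13.8%) or the AP-1 site TGACTCA (4.95%). A match is a run of letters and does not show binding.

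The libraries held 12230923 to 18679544 counts, with the smallest totals in CDK4/6i+ATRA (12230923 to 14415276). Over the 12 libraries, 3 counts, taken as the limit of detection, corresponded to 0.161 to 0.245 CPM (counts scaled to a common library total) before TMM scaling. Levels are given as CPM scaled by the TMM method of edgeR, whose factors were 0.84 to 0.893 in CDK4/6i+ATRA and 1.03 to 1.07 in the other groups. Without TMM, the median log2 fold change of all tested genes moved from 0.02 to -0.25 in the comparison of CDK4/6i+ATRA with non-treated cells, and from -0.02 to -0.34 in the interaction of the drugs. Calls of members that this shift changes are given below, and for other autophagy genes only the totals. Mitochondrial genes took 4.64% to 6.09% of counts in CDK4/6i+ATRA and 1.9% to 3.92% elsewhere. Of 7 myeloid blast markers, MPO, CD33, SPI1 and KIT were detected, whereas ELANE, PRTN3 and AZU1, which the table also lists on an alternate contig, were at 0 in every library. The summed level of the 7 blast markers was 6739 to 7067 CPM in non-treated cells, 821 to 864 with ATRA, 3897 to 4027 with CDK4/6i and 959 to 1007 with CDK4/6i+ATRA, within which single markers differed. MPO had means of 6517, 293, 3469 and 28 CPM in this order, whereas SPI1 had 302, 463, 362 and 855 CPM, most of the sum with both drugs, and CD33 had 93.9, 77.9, 118 and 99.8 CPM. The summed level of 10 granulocyte or monocyte markers was 220.7 to 234 CPM in non-treated cells, 2486 to 2550 with ATRA, 597 to 620 with CDK4/6i and 3729 to 3891 with CDK4/6i+ATRA, of which CYBB alone had a mean of 3017 CPM in the last group. Blast and differentiation markers moved with the treatments, and their part in the values below was not tested. Erythroid markers were at 0 (3 of 3), and T cell, epithelial and fibroblast markers summed to at most 3.1 CPM in any library, while B cell markers reached 24.97 CPM, nearly all from CD79A.

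Most members were higher after treatment, and the combination gave the highest level of 7 of them. How many of all tested genes have this order, or groups of libraries that do not overlap, was not counted. All 9 were among the 13318 genes that passed the filter on low counts, and calls were made at an adjusted p under 0.05 in the quasi-likelihood test of edgeR. With ATRA, 7 members were called higher, 0 lower and 2 neither, where 32.1% of all tested genes were called higher and 35.5% lower. With CDK4/6i, 8 were called higher and 0 lower, against 28.3% and 27.9% of all genes. With CDK4/6i+ATRA, 8 were called higher and 0 lower, against 41% and 40.7% of all genes. No member had a log2 fold change below 0 in these 3 comparisons in edgeR, so 0 would be called lower at an unadjusted p under 0.05 as well, and DESeq2 also called 0 lower. The median log2 fold change of the 9 members was 1.02 under ATRA, 0.51 under CDK4/6i and 2.21 under the combination, while the median of all tested genes lay between -0.03 and 0.02. The members, and the gene lists below, were chosen with earlier results of these data known, so their comparison with all genes is descriptive only. In bulk RNA, more transcript per cell and a larger share of cells holding the transcript cannot be told apart.

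**Figure D1:**
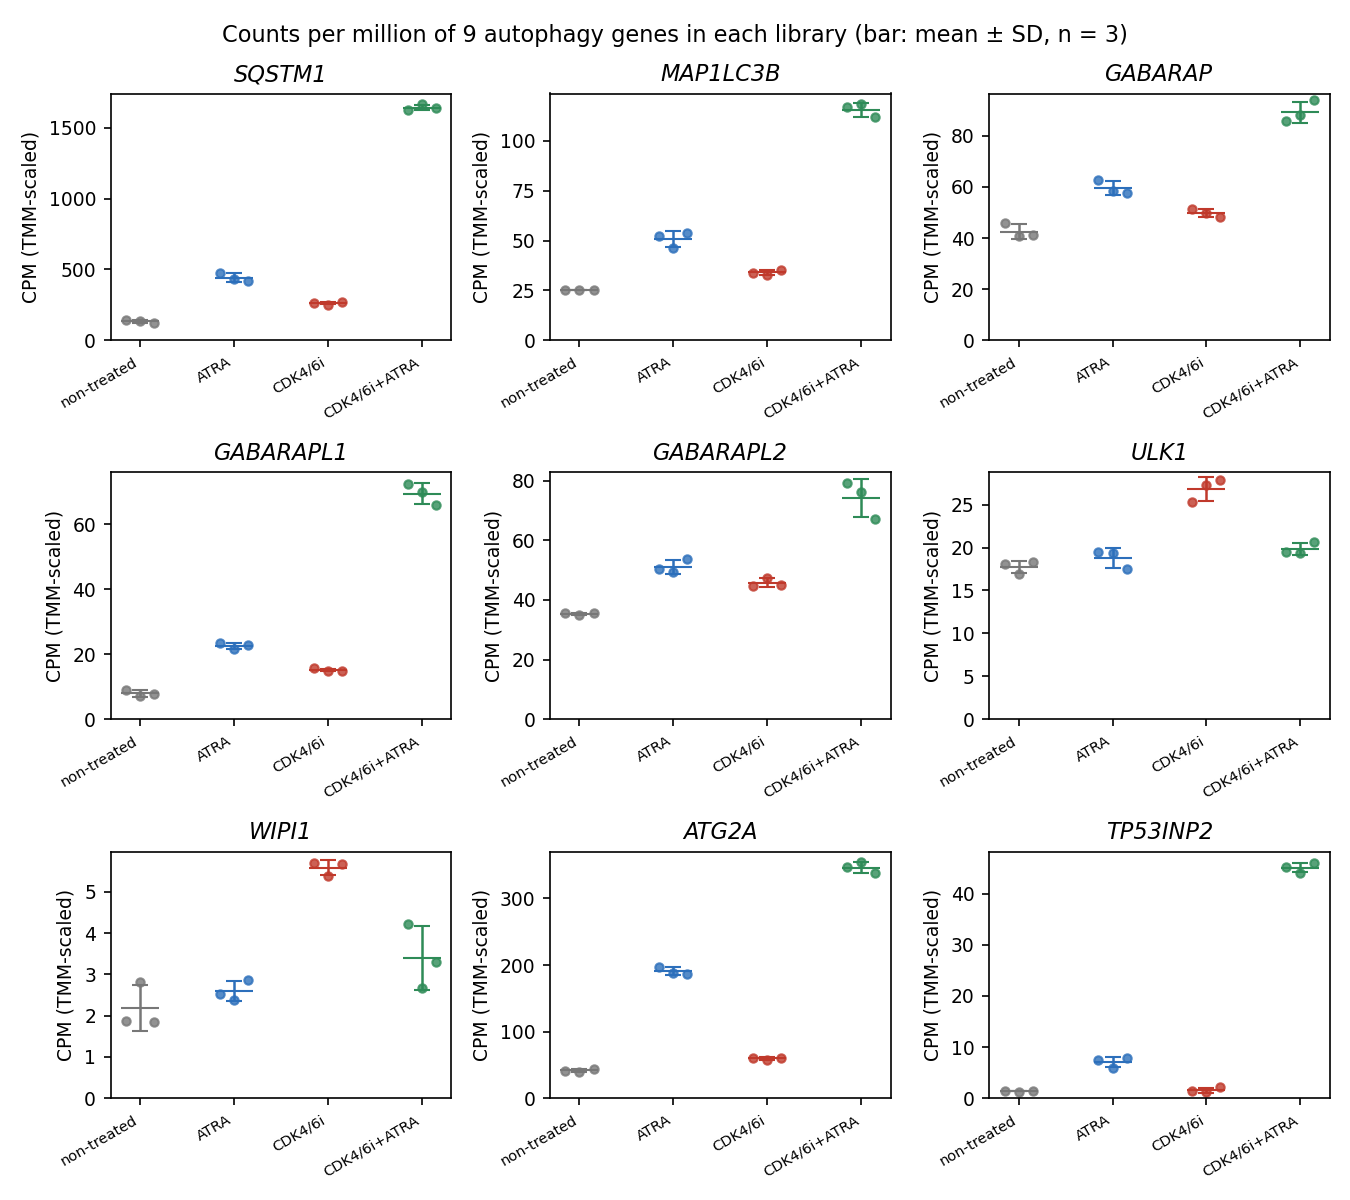
TMM-scaled CPM of the 9 members (one panel each, linear axis from 0) in the 3 libraries of each of the 4 groups. Points are libraries, and bars give the mean ± SD (n = 3). In 7 panels the CDK4/6i+ATRA libraries lie above every other library, an order not counted over all genes. ULK1 and WIPI1 are highest with CDK4/6i alone.

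SQSTM1 (chr5:179806393-179838078, plus strand) encodes p62, which links ubiquitinated cargo to ATG8 proteins and also binds KEAP1, the repressor of the oxidative stress factor NRF2. It held 142, 136 and 124 CPM in the non-treated libraries and 475, 433 and 415 CPM with ATRA. CDK4/6i gave 264, 252 and 268 CPM, and CDK4/6i+ATRA gave 1626, 1665 and 1636 CPM. The 4 groups did not overlap, and the combination stood far above either drug. The log2 fold change against non-treated cells was 1.72 ± 0.05 (SE) with ATRA, 0.96 ± 0.05 with CDK4/6i and 3.62 ± 0.05 with both, a 12.3-fold rise (edgeR adjusted p = 5.83e-48). Against the single drugs, the combination was 3.72-fold above ATRA (adjusted p = 3.09e-37) and 6.28-fold above CDK4/6i (adjusted p = 4.22e-43) in the same edgeR fit. SQSTM1 is also listed on a patch contig, which repeats its exons and makes the deposited length 6526 bases in place of 3263, and whether reads that align to both copies were counted is not stated in the sources used here. On that contig 27 genes are listed, of which 7 held at least 100 counts in every library and 9 held none. An antisense gene, MRNIP, overlaps 610 of its exonic bases, but MRNIP held 293 counts over the 12 libraries against 99392 for SQSTM1. MGAT4B, also on the opposite strand, overlaps 105 of its exonic bases and held 28949 counts.

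MAP1LC3B (chr16:87392336-87404774, plus strand) encodes LC3B, the ATG8 protein most used as a marker of autophagosomes. Its level was 25.1, 25 and 25.1 CPM in non-treated cells and 52.4, 46.3 and 53.98 CPM with ATRA. It was 34, 33 and 35.3 CPM with CDK4/6i and 116.9, 118.4 and 111.8 CPM with CDK4/6i+ATRA. Again no group overlapped another. MAP1LC3B rose 2.03-fold with ATRA, 1.36-fold with CDK4/6i and 4.61-fold with both (log2 2.21 ± 0.06 SE, edgeR adjusted p = 2.35e-35).

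GABARAPL1 (chr12:10212877-10223128, plus strand), a GABARAP subfamily member, had the lowest level per length of the 4 ATG8 genes in non-treated cells and the largest rise among them. The non-treated libraries held 9.14, 7.02 and 7.72 CPM, and those with ATRA held 23.4, 21.6 and 22.9 CPM. With CDK4/6i the values were 15.7, 14.97 and 14.98 CPM, and with CDK4/6i+ATRA they were 72.3, 69.9 and 65.9 CPM. Each treated group lay wholly above the non-treated libraries, and the combination lay wholly above both single drugs. The rise was 2.84-fold with ATRA, 1.91-fold with CDK4/6i and 8.69-fold with both (log2 3.12 ± 0.08 SE, edgeR adjusted p = 1.91e-35).

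GABARAP (chr17:7240008-7242449, minus strand) and GABARAPL2 (chr16:75566379-75577881, plus strand; also called GATE-16) act mainly at later steps of autophagosome formation. GABARAP held 45.7, 40.7 and 41.2 CPM in non-treated cells, 62.6, 58.6 and 57.5 CPM with ATRA, 51.5, 49.9 and 48.3 CPM with CDK4/6i, and 85.98, 87.98 and 93.9 CPM with both. GABARAPL2 held 35.6, 35.1 and 35.5 CPM in non-treated cells, 50.3, 49.4 and 53.7 CPM with ATRA, 44.8, 47.5 and 45.1 CPM with CDK4/6i, and 79.3, 76 and 67.2 CPM with both. These genes rose less than the other ATG8 genes but in libraries that did not overlap between groups. With CDK4/6i+ATRA, GABARAP rose 2.10-fold (log2 1.07 ± 0.06 SE, edgeR adjusted p = 4.37e-23) and GABARAPL2 rose 2.09-fold (log2 1.06 ± 0.06 SE, edgeR adjusted p = 1.09e-21). Of the 1319 exonic bases of GABARAP, 821 (62.2%) also belong to PHF23 on the same strand, which held 6087 counts in all against 10901 for GABARAP, so reads there could be assigned to either gene.

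Because shares within a library do not depend on the scaling between libraries, the make-up of the 4 ATG8 transcripts was compared as each gene's share of their summed reads per length. GABARAPL1 made up 4.11% ± 0.415 (SD, n = 3) of the sum without treatment, 7.49% ± 0.0933 under ATRA, 6.14% ± 0.161 under CDK4/6i and 13.2% ± 0.281 under both. The share of MAP1LC3B was 13.96% ± 0.438, 18.1% ± 0.863, 14.8% ± 0.693 and 23.7% ± 0.27 in the same order. GABARAP and GABARAPL2 together made up most of the sum in every library, and both had smaller shares with the combination. For GABARAP the mean share was 38.5% ± 1.2 in non-treated cells and 29.8% ± 2.2 with CDK4/6i+ATRA, and for GABARAPL2 it was 43.4% ± 1.15 and 33.4% ± 1.95. Between these groups no library overlapped for any of the 4 genes, and each difference had an exact permutation p of 0.1 (two-sided, 3 against 3), the smallest that 3 libraries per group allow (0.111 after adjustment over 20 tests), so no share difference could pass 0.05. With CDK4/6i alone, the shares of MAP1LC3B and GABARAPL2 overlapped those of non-treated cells (exact permutation p = 0.2 and 0.7). The difference for GABARAPL2 with CDK4/6i was 0.36 percentage points and turned to -0.35 when raw counts were not divided by length. When all counts of GABARAP were set over only its 498 bases outside PHF23, its mean share became 62.4% in non-treated cells and 52.8% with CDK4/6i+ATRA. These shares are upper limits, which hold only if no counted read lay in the shared bases.

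**Figure D2:**
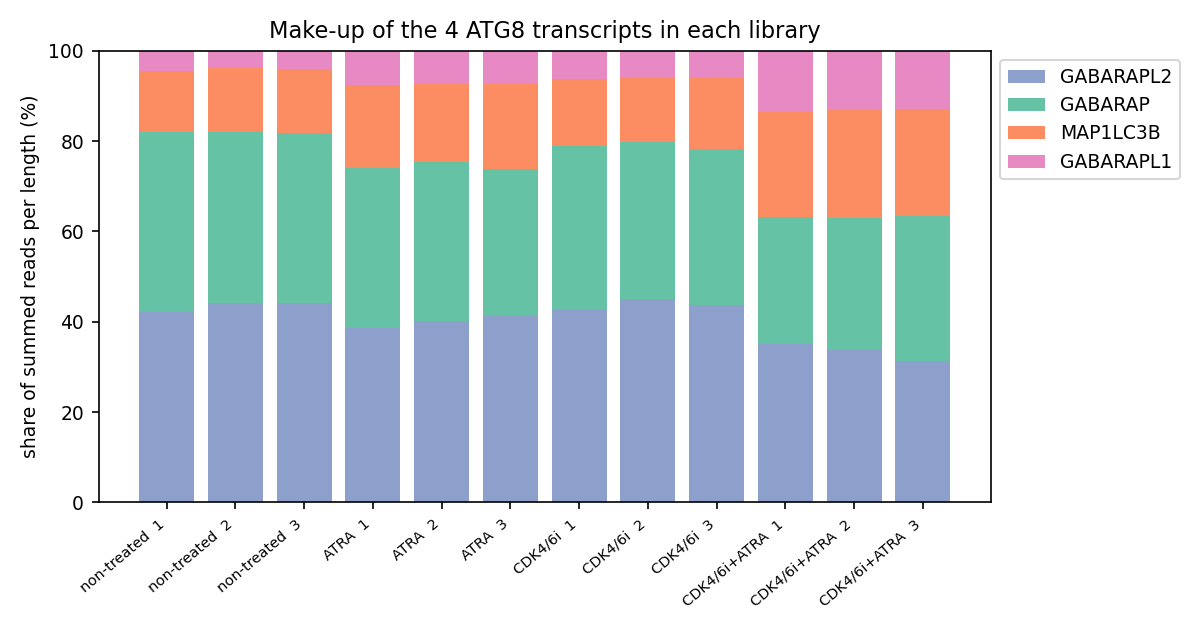
Share (%) of each of 4 ATG8 genes in their summed reads per length, 1 stacked bar for each of the 12 libraries, adding to 100%. The GABARAPL1 part grows from 3.73% to 4.56% in non-treated libraries to 12.9% to 13.5% with CDK4/6i+ATRA, and the GABARAPL2 part goes from 42.1% to 44.1% to 31.2% to 35%.

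ULK1 (chr12:131894622-131923150, plus strand), the kinase that starts autophagosome formation, was highest with CDK4/6i alone. Its level was 18, 16.9 and 18.3 CPM in non-treated cells and 19.5, 19.4 and 17.5 CPM with ATRA. CDK4/6i gave 25.3, 27.3 and 27.9 CPM, and CDK4/6i+ATRA gave 19.4, 19.3 and 20.7 CPM. The CDK4/6i libraries stood above all others. ULK1 rose 1.51-fold with CDK4/6i (log2 0.59 ± 0.08 SE, edgeR adjusted p = 7.68e-09), and was not called with ATRA (log2 0.08, 95% interval -0.09 to 0.25, edgeR adjusted p = 0.412) or with both (log2 0.16, -0.02 to 0.34, edgeR adjusted p = 0.0933). The last value was -0.11 when libraries were scaled by size alone, and passed the threshold at 0.19 (edgeR adjusted p = 0.0418) when genes with under 10 counts in any library were left out. Against CDK4/6i alone, ULK1 fell by 26% with the combination (log2 -0.43 ± 0.08 SE, edgeR adjusted p = 6.91e-06).

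WIPI1 (chr17:68421281-68457496, minus strand), which binds phosphatidylinositol 3-phosphate at the forming membrane, had a like order of groups at a low level. The non-treated libraries held 1.86, 2.82 and 1.86 CPM, those with ATRA 2.53, 2.39 and 2.87 CPM. With CDK4/6i they held 5.7, 5.38 and 5.68 CPM and with CDK4/6i+ATRA 4.22, 2.67 and 3.31 CPM. The CDK4/6i libraries lay above all others, while CDK4/6i+ATRA overlapped non-treated cells. The rise with CDK4/6i was 2.57-fold (log2 1.36 ± 0.20 SE, edgeR adjusted p = 7.75e-08), and from that level WIPI1 fell by 39.3% with both drugs (log2 -0.72 ± 0.20 SE, edgeR adjusted p = 0.00116). With ATRA it was not called (log2 0.26, 95% interval -0.19 to 0.72, edgeR adjusted p = 0.312). The rise with both drugs (log2 0.64 ± 0.23 SE, edgeR adjusted p = 0.0106) rested on single libraries, with an edgeR adjusted p of 0.0503 when non-treated replicate 1 was left out, 0.0554 when non-treated replicate 3 was left out and 0.0996 when CDK4/6i+ATRA replicate 1 was left out, and was 0.38 with scaling by library size alone, which did not pass. WIPI1 held 654 counts in all 12 libraries, and ARSG on the opposite strand, which overlaps 823 of its exonic bases, held 3000. The library kit was directional, but strand use in counting is not stated in the sources used here.

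ATG2A (chr11:64894546-64917209, minus strand), a lipid transfer protein that feeds the growing membrane, had a larger fold change with ATRA than with CDK4/6i. The libraries held 41.5, 40 and 44.3 CPM without treatment and 197.1, 188.7 and 186 CPM with ATRA. CDK4/6i gave 60.8, 57.9 and 60.97 CPM, and CDK4/6i+ATRA gave 347.3, 354.1 and 337.4 CPM. No group overlapped another. ATG2A rose 4.54-fold with ATRA (log2 2.18 ± 0.05 SE, edgeR adjusted p = 1.59e-39), 1.43-fold with CDK4/6i and 8.25-fold with both (log2 3.04 ± 0.04 SE, edgeR adjusted p = 1.54e-46). Its paralog ATG2B had a log2 fold change of -0.27 with both drugs.

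TP53INP2 (chr20:34704344-34713436, plus strand), also called DOR, shuttles from the nucleus to autophagosomes and binds ATG8 proteins. It was barely expressed without ATRA, with 1.44, 1.32 and 1.41 CPM in non-treated cells and 1.35, 1.22 and 2.17 CPM with CDK4/6i. ATRA gave 7.4, 6.01 and 7.9 CPM, and CDK4/6i+ATRA gave 45.2, 44.1 and 45.9 CPM. The CDK4/6i libraries overlapped the non-treated ones, and the combination lay above all others. The rise was 5.09-fold with ATRA (log2 2.35 ± 0.18 SE, edgeR adjusted p = 3.39e-16) and 32.3-fold with both (log2 5.01 ± 0.14 SE, edgeR adjusted p = 2.52e-34). CDK4/6i alone gave a log2 fold change of 0.18 (95% interval -0.32 to 0.68, edgeR adjusted p = 0.567), which was -0.11 without CDK4/6i replicate 3. Its paralog TP53INP1 held 0 to 3 counts per library and was not tested.

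Per length, as RPKM (CPM divided by kilobases of exon), with full exonic lengths, SQSTM1 was the most abundant member in every group, from 41.1 ± 2.91 RPKM (SD, n = 3) in non-treated cells to 503 ± 6.13 RPKM with CDK4/6i+ATRA. In non-treated cells it was followed by GABARAPL2 at 36.3 ± 0.311, GABARAP at 32.3 ± 2.1, MAP1LC3B at 11.7 ± 0.0239, ATG2A at 6.61 ± 0.34, GABARAPL1 at 3.45 ± 0.467, ULK1 at 3.29 ± 0.135, WIPI1 at 0.492 ± 0.125 and TP53INP2 at 0.291 ± 0.0136 RPKM. Neighbours in this order did not overlap between libraries except GABARAPL1 and ULK1. With CDK4/6i+ATRA the order after SQSTM1 was GABARAPL2 (76.1 ± 6.43), GABARAP (67.7 ± 3.11), ATG2A (54.6 ± 1.32), MAP1LC3B (53.9 ± 1.6), GABARAPL1 (30.1 ± 1.41), TP53INP2 (9.46 ± 0.192), ULK1 (3.67 ± 0.136) and WIPI1 (0.766 ± 0.175 RPKM). There GABARAPL2 overlapped GABARAP, and ATG2A overlapped MAP1LC3B. Thus TP53INP2 stood last without treatment and above ULK1 and WIPI1 with both drugs. The place of GABARAP depends on its length. With all its counts set over only the bases outside PHF23, it would stand above SQSTM1 in non-treated cells (85.4 RPKM) and with CDK4/6i (100.2 RPKM, where SQSTM1 had 80.1). It would then stand second with ATRA (119.6 RPKM) and with both drugs (179 RPKM). These values are upper limits, which hold only if no counted read lay in the shared bases.

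Adding the other drug changed most members further. Against CDK4/6i alone, CDK4/6i+ATRA had 7 members higher and 2 lower (ULK1 and WIPI1), where 39.1% of all genes were called higher and 39.5% lower, and the members' median log2 fold change was 1.76. Against ATRA alone, 7 were called higher and 0 lower, where 36.9% of all genes were higher and 32.8% lower, with a median of 0.86, and 0 lower at an unadjusted p under 0.05 or in DESeq2. ULK1 (log2 0.08) and WIPI1 (log2 0.38) were not called in the latter, and ULK1 was at -0.23 (edgeR adjusted p = 0.0206) with scaling by library size alone. These comparisons share the CDK4/6i+ATRA libraries.

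The interaction of the drugs was tested as the log2 fold change with both minus the sum of those with each, so that 0 means fold changes that multiply. It was called above 0 for 6 members and below 0 for 2, where 24.5% of all genes were above and 27% below. TP53INP2 had the largest value, 2.49 ± 0.29 (SE, edgeR adjusted p = 2.16e-10), a 32.3-fold rise where the product of the single-drug folds was 5.76. For SQSTM1 it was 0.93 ± 0.06 (edgeR adjusted p = 1.91e-17), a 12.3-fold rise where the product was 6.42. MAP1LC3B stood at 0.74 ± 0.08 (edgeR adjusted p = 2.03e-10) and GABARAPL1 at 0.68 ± 0.12 (edgeR adjusted p = 6.45e-06). Smaller values were found for GABARAP (0.35 ± 0.08, edgeR adjusted p = 1.43e-04) and ATG2A (0.35 ± 0.06, edgeR adjusted p = 6.21e-06), which with scaling by library size alone were 0.04 and 0.03 and no longer passed. GABARAPL2 was not called (0.16 ± 0.08, 95% interval -0.0043 to 0.33, edgeR adjusted p = 0.0983), was -0.15 with scaling by library size alone, and passed at 0.23 (edgeR adjusted p = 0.0192) once CDK4/6i+ATRA replicate 3 was left out. The interaction was below 0 for ULK1 (-0.51 ± 0.12, edgeR adjusted p = 2.31e-04) and WIPI1 (-0.98 ± 0.30, edgeR adjusted p = 0.0055).

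**Figure D3:**
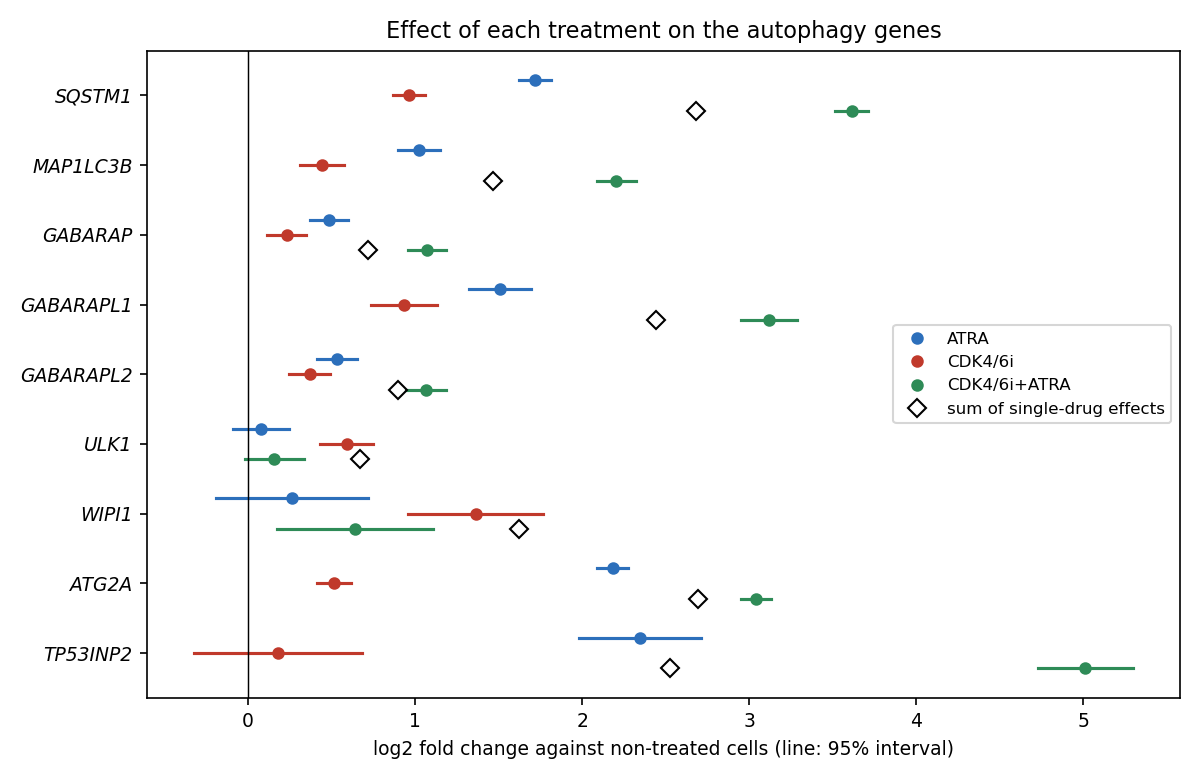
Log2 fold change against non-treated cells (x axis) of the 9 members under each treatment, with 95% intervals from edgeR as lines. The open diamond is the sum of the single-drug values. The combined value lies right of the diamond for SQSTM1 (3.62 against 2.68) and TP53INP2 (5.01 against 2.53) and left of it for ULK1 (0.16 against 0.67) and WIPI1 (0.64 against 1.62).

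Outside the 9 members, 79 autophagy genes compiled by hand in 7 lists were read from the same fit. Of these, 8 were not tested for low counts, among them the whole list of remaining ATG8 genes (MAP1LC3A with 0 to 2 counts per library, MAP1LC3B2, MAP1LC3C with 0, and GABARAPL3) and the receptor OPTN, which was at 0 in every library. With CDK4/6i+ATRA, 44 of the 71 tested genes were called higher, 15 lower and 12 neither, beside 41% and 40.7% of all genes, with a median log2 fold change of 0.39. ATRA alone gave 32 higher and 20 lower, beside 32.1% and 35.5% of all genes, and CDK4/6i alone gave 32 higher and 10 lower, beside 28.3% and 27.9%. With scaling by library size alone, under which the median of all genes with the combination stood lower (-0.25), 33 were called higher and 25 lower, beside 32.9% and 48.3% of all genes under that scaling. The interaction was called above 0 for 35 and below 0 for 13, beside 24.5% and 27% of all genes, and with scaling by library size alone for 10 and 31, beside 10.3% and 45.5% of all genes under that scaling. The counts per list that follow are from TMM scaling only and were not recounted under the other scaling, which could change calls of genes with small values.

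Among 21 other receptors tested, 10 were called higher and 6 lower with CDK4/6i+ATRA, where 41% of all genes were called higher and 40.7% lower. WDFY3 (ALFY), a scaffold that acts with p62 on protein aggregates, had the largest rise of these, from 14.5 ± 0.911 CPM (SD, n = 3) to 223.8 ± 9.15 CPM (log2 3.95 ± 0.06 SE, interaction 1.06). CALCOCO1 (log2 2.09) and CCPG1 (log2 2.00), both receptors for the endoplasmic reticulum, also rose. Falls were found for ATL3 (log2 -1.61), the mitophagy receptor BNIP3 (log2 -1.51, interaction -0.72) and CALCOCO2 (NDP52, log2 -0.86). The median log2 fold change of these receptors was 0.05, beside 0.02 for all genes.

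Of 12 initiation genes tested, 9 were called higher and 2 lower with the combination, beside the same 41% and 40.7% of all genes, with a median log2 fold change of 0.29. The largest values belonged to RUBCN (log2 1.54, interaction 0.90), known as an inhibitor of the class III phosphatidylinositol 3-kinase, NRBF2 (1.17), a subunit of that complex, and BECN1 (0.60), its core component. UVRAG (-0.80) and PIK3R4 (-0.70) fell. Of 7 genes for phosphoinositide effectors and lipid transfer, 4 were called higher and 1 lower (41% and 40.7% of all genes), with WDR45 (WIPI4, a partner of ATG2 proteins) at log2 2.26, ZFYVE1 at 1.64, the scramblase TMEM41B at 1.04 and ATG2B at -0.27.

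Of 11 genes for the enzymes and factors that process ATG8 proteins and attach them to lipid, 5 were called higher and 3 lower with CDK4/6i+ATRA, beside 41% and 40.7% of all genes, with a median log2 fold change of 0.18. ATG4A (0.94), a protease that primes ATG8 proteins, ATG7 (0.89), the E1-like enzyme, and ATG12 (0.76) rose, while ATG3 (-0.98), the E2-like enzyme, ATG4C (-0.46) and ATG5 (-0.24) fell. ATG16L2 had one of the lowest interactions (-0.75), with log2 0.85 under ATRA and 0.18, not called, under both drugs.

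Of 11 genes for fusion of autophagosomes with lysosomes, 10 were called higher and 1 lower with the combination, where 41% of all genes were called higher and 40.7% lower, and the median log2 fold change was 0.68. RUBCNL (Pacer) rose from 1.01 ± 0.125 to 15.8 ± 1.97 CPM (log2 3.95 ± 0.19 SE), although its interaction was below 0 (-0.67, edgeR adjusted p = 0.0367). The adaptor PLEKHM1 (1.81) and TECPR1 (1.48) rose as well, and the SNARE protein gene VAMP8 fell (-0.81).

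Transcriptional regulators of autophagy held the largest rise of any list, that of TFEB. TFEB, which drives lysosomal and autophagy genes, held 1.83 ± 0.402 CPM (SD, n = 3) without treatment, 14.1 ± 0.341 under ATRA, 1.73 ± 0.515 under CDK4/6i and 60.3 ± 4.31 under both. Its log2 fold change with both drugs was 5.02 ± 0.12 SE and its interaction 2.21 ± 0.25 SE (edgeR adjusted p = 1.58e-10), beside 5.01 and 2.49 for TP53INP2. The related factor TFE3 rose from 32.7 ± 3.35 to 176.2 ± 9.65 CPM (log2 2.43), and MITF was called only in the comparisons with the combination, with 1.94 ± 0.738 CPM in non-treated cells and 11.8 ± 1.18 CPM with both drugs (log2 2.61, interaction 2.72). FOXO3 rose (log2 1.72). FOXO1 was called at log2 1.31 on 0 to 22 counts per library (4 to 6 in non-treated cells, 6 to 11 with both drugs). It passed the low-count filter only through libraries given ATRA, where it was higher. FOXK1 (-1.10) and FOXK2 (-0.97), known as repressors of autophagy genes, fell. ZKSCAN3, another known repressor, was not called (-0.21, edgeR adjusted p = 0.372). The E-box that TFEB and its relatives bind was in no member's window above, which says only that these letters are not within it.

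**Figure D4:**
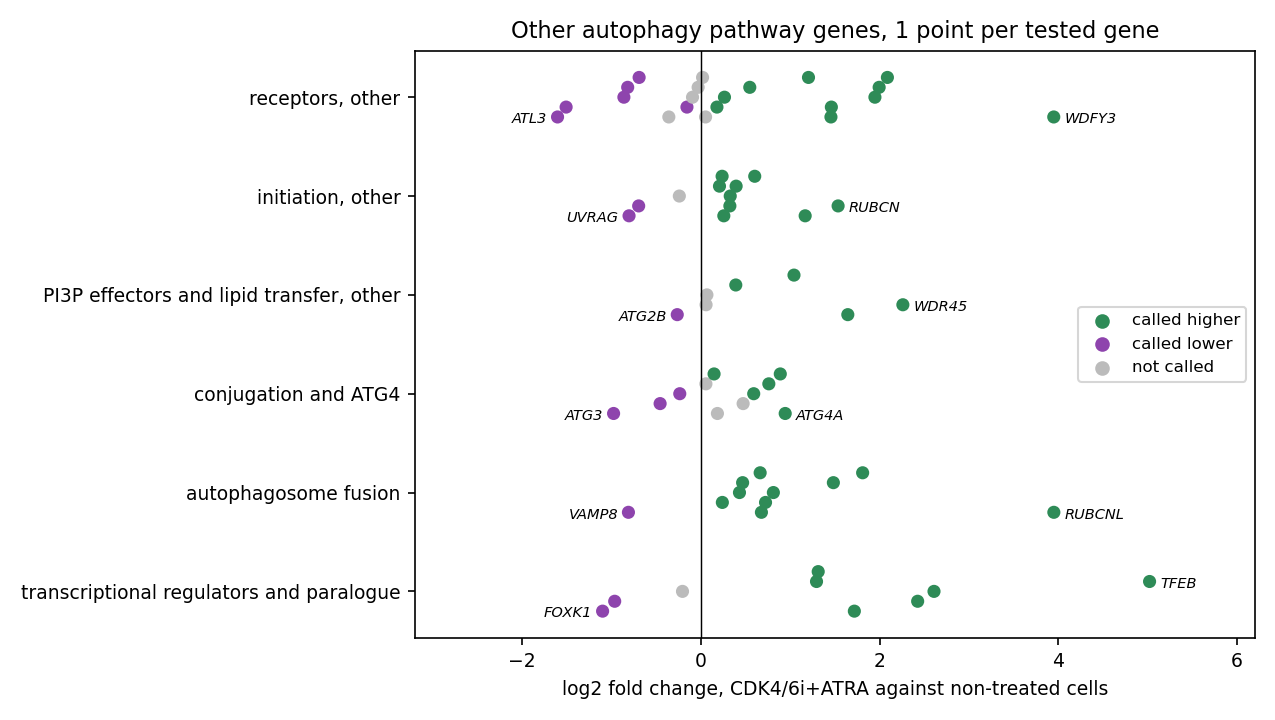
Log2 fold change under the combined treatment against no treatment (x axis) of the 71 tested autophagy genes outside the 9 members, 1 point per gene in a row per list, coloured by the edgeR call. The highest and lowest gene of each row is named, from TFEB at 5.02 to ATL3 at -1.61.

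The genes whose pattern over the 12 libraries was nearest to each member were found by the root mean square difference of log2 CPM, centred on the non-treated mean, among about 9299 genes whose mean reached 5 CPM. The nearest to SQSTM1 were TBXAS1 (0.12) and RIT1 (0.18), and for MAP1LC3B S100A11 (0.09) and RNF149 (0.09). GABARAP was nearest to WDTC1 and NDUFA4, GABARAPL1 to SLC7A11 and SH3BGRL3, GABARAPL2 to SNX19 and MOB1A, and ATG2A to POR and DUSP4. ULK1 was nearest to MOSPD3 and PYGL, at 0.08 and 0.10. WIPI1 (LOC729683 at 0.25 and ZNF627 at 0.26) and TP53INP2 (PLXNA1 at 0.37 and RBM47 at 0.38) had no neighbour as close. These genes held as few as 30 and 20 counts in a library, and the part of counting error in their distances was not tested. Among the members themselves, GABARAP and GABARAPL2 were the nearest pair (0.12), followed by SQSTM1 and GABARAPL1 (0.29). ULK1 and WIPI1 were 0.50 apart, with a Pearson r of 0.84 over the 12 libraries, which share their group means and scaling.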

How the data were processed

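The deposited table holds whole-number raw counts per gene, without normalization, for 12 libraries. Per the paper's methods, the authors aligned reads to hg38 with STAR 2.7.11a under the NCBI RefSeq annotation, and the submitters' processing notes also name Trimmomatic 0.33. They name RSEM as the counter, whereas the table has the layout of featureCounts. How reads with several alignments were treated is not given in the sources used here.

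Counts were filtered with filterByExpr, scaled by TMM and tested in edgeR 4.0.16 (R 4.3.3) with a model of the 4 groups over 12 libraries (8 residual degrees of freedom, quasi-likelihood F test, two-sided, Benjamini-Hochberg over 13318 genes). RPKM used exonic lengths on primary chromosomes. ATG8 shares were compared by exact permutation (scipy 1.17.1). The fit was tested on simulated counts. Intervals and edgeR p-values use each gene's spread between libraries after edgeR moderated it with that of all genes. They therefore rest on more than the 8 residual degrees of freedom. Intervals cover spread between libraries only, and counting floors cover counting error only. No pairing of libraries by replicate number was detected, and the main fit used none.

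The members and gene lists were chosen with earlier results of these data known. All members are named. Of other listed genes with a mean of at least 5 CPM, those named are up to 3 largest rises and 3 largest falls per list with CDK4/6i+ATRA, the 3 highest and 3 lowest interactions, and TFEB, TFE3, MITF, ZKSCAN3, FOXO1, FOXO3 and TP53INP1 at any level. Others named (OPTN and the untested ATG8 genes) were chosen after their values were seen. Alternatives were scaling by library size alone or by DESeq2's size factors, a filter of 10 counts per library or none, a replicate block, DESeq2 1.42.0, only the groups compared, leaving out each library, shares of raw counts, and, added after seeing the data, the length of GABARAP without PHF23.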

Additional observations from a re-analysis of the deposited data

Results flagged for a closer look

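The effect of one drug depended on the other, by the interaction test in edgeR, for 8 of the 9 members. The interaction on the log2 scale was 2.49 for TP53INP2, 0.93 for SQSTM1, 0.74 for MAP1LC3B, 0.68 for GABARAPL1, 0.35 for GABARAP and 0.35 for ATG2A. It was -0.51 for ULK1 and -0.98 for WIPI1, which were higher with CDK4/6i alone than with both drugs. Over 18 alternatives, the values ranged from 2.17 to 2.76 for TP53INP2, from 0.61 to 0.98 for SQSTM1, from 0.42 to 0.78 for MAP1LC3B, from 0.36 to 0.75 for GABARAPL1, from -0.83 to -0.49 for ULK1 and from -1.30 to -0.84 for WIPI1, all past the threshold. Those of GABARAP (0.04 to 0.38) and ATG2A (0.03 to 0.38) did not pass with scaling by library size alone. Shares of calls over all genes were 24.5% above and 27% below 0.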

How the results depend on the processing

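Of 1017 recomputed log2 fold changes of members, 1004 kept their direction and their side of the threshold, 5 changed sign, 1 of which (ULK1 against ATRA, below) also newly passed, 6 kept their sign and no longer passed, and 2 kept their sign and newly passed. Of these 13 changes, 6 came with scaling by library size alone, 2 with another filter and 5 with a library left out. With library size alone, 1 member (ULK1) in place of 0 was called lower in CDK4/6i+ATRA against ATRA (48.1% of all genes in place of 32.8%). Other autophagy genes were called lower with CDK4/6i+ATRA in 25 cases in place of 15 (48.3% of all genes in place of 40.7%). Their interactions were called above 0 for 10 and below 0 for 31 in place of 35 and 13 (10.3% and 45.5% of all genes in place of 24.5% and 27%). ULK1 stood at -0.11 against non-treated cells and at -0.23 against ATRA under that scaling (-0.0133 with no filter), and the interaction of GABARAPL2 at -0.15. TP53INP2 with CDK4/6i stood at -0.11 without CDK4/6i replicate 3 and between that and 0.32 over leaving out each library. The share difference of GABARAPL2 with CDK4/6i was -0.35 points from raw counts and ranged from -0.31 to 0.91 over leaving out each library. Leaving out a library moved the count of members called higher with CDK4/6i+ATRA from 8 to 7 (WIPI1), and that of positive interactions from 6 to 7 (GABARAPL2). The ratio of the highest to the lowest member level per length in non-treated cells was 141. It became 293 with all GABARAP counts set over its length outside PHF23.

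No pairing of the libraries by replicate number was detected: 18 correlations of same-numbered deviations over all tested genes lay between -0.07 and 0.03. A weak shared effect could be hidden by counting error of low genes. The replicate block changed no call of a member (8 of 9 still higher with CDK4/6i+ATRA) and moved 10885 called genes to 10824. Depth limits WIPI1 and TP53INP2, with as few as 30 and 20 counts in a library.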
